A study of Oreochromis niloticus with 6 samples.

Results

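Genes for neurotransmitter and hormone receptors, and for the peptides that act on them, were followed in the liver of male Nile tilapia (Oreochromis niloticus). The members were chosen by their pathway annotation and their mean level: a gene had to carry the annotation neuroactive ligand-receptor interaction in the deposited table and a mean of at least 1 FPKM (fragments counted per kilobase of gene length, relative to the sum over the library) over all 6 libraries. Of 29528 genes in the table, 622 carried the annotation and 83 of these reached that mean. A further 17 were left out by their descriptions, among them steroid and thyroid hormone receptors, prostaglandin and leukotriene receptors and digestive proteases. The 66 genes that met the rule were joined by LOC106098272, described as a beta-2 adrenergic receptor, which the rule names together with drd3 and whose pathway field is empty. Among the 67 members were 55 receptors or receptor subunits, 11 peptide precursors and 1 gene of another kind, tspo, so the set holds ligands as well as receptors. They lay on 21 linkage groups.

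The study compared 2 groups of 3 libraries each. Fish of the knockdown group had been treated with antisense RNA against elovl6, the gene for a fatty acid elongase of the endoplasmic reticulum, and the other group is labelled a negative control, with no further description of what those fish received. All fish of both groups were male and ate a palm oil diet, a pellet feed with 5% palm oil. Livers were taken from 9 fish per group, and RNA from 3 replicate tanks per group was combined in equal amounts. Whether the libraries of a group came from separate pools of fish is not clear from that wording, so p-values measure the spread between libraries, which may be technical. Strain, age and duration of the treatment are not stated in the labels.

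Most of these receptors span the membrane and couple to G proteins, which pass the signal to adenylate cyclase, phospholipase C or small GTPases. A smaller number are ion channels that open when a transmitter binds. In vertebrate liver such receptors are found on hepatocytes, where glucagon and adrenaline act on glucose output, and also on the endothelium, stellate cells, bile ducts, leukocytes and nerve endings of the organ. Angiotensinogen and kininogen, which are precursors of vasoactive peptides, are made by hepatocytes and released into the blood.

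The targeted gene checked the labels. The 3 knockdown libraries held elovl6 at 39.3, 36.9 and 36.6 FPKM and the 3 control libraries at 163, 160.4 and 163 FPKM, a log2 fold change of -2.12 (SE 0.05). The groups did not overlap, and the exact 2-sided permutation p of 0.1 is the smallest that 3 libraries against 3 allow. Total counts ran from 14341242 to 14973737 reads in the knockdown group and from 15322360 to 17245179 in the control group. The correlation of log expression between libraries of the same group lay between 0.991 and 0.995, and no library stood apart.

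Receptors were read at low levels next to the peptide precursors. The median receptor had a mean of 2.31 FPKM over the 6 libraries, and 5 receptors were above 10 FPKM: both somatostatin receptor type 2 genes, the adrenocorticotropic hormone receptor, the type-2 angiotensin II receptor and a lysophosphatidic acid receptor 6. The precursors kininogen-1 and angiotensinogen reached means over both groups of 753 and 331 FPKM. Of the annotated genes under the level limit, 539 in number, 268 had no read in any library and their median mean was 0.0017 FPKM. The lowest members were a C5a receptor (LOC100690534, mean 1.01 FPKM), the histamine H3 receptor (1.04 FPKM) and ghrhr (1.05 FPKM). Just outside lay LOC100698856, a homolog of the cell polarity gene pard3 with a mean of 0.998 FPKM, an alpha-2Db adrenergic receptor (LOC100708556) with 0.978 FPKM and another beta-2 adrenergic receptor (LOC100711747) with 0.973 FPKM. The latter averaged 0.0494 FPKM in the knockdown group and 1.896 FPKM in the control group, the opposite order to that of LOC106098272.

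**Figure D1:**
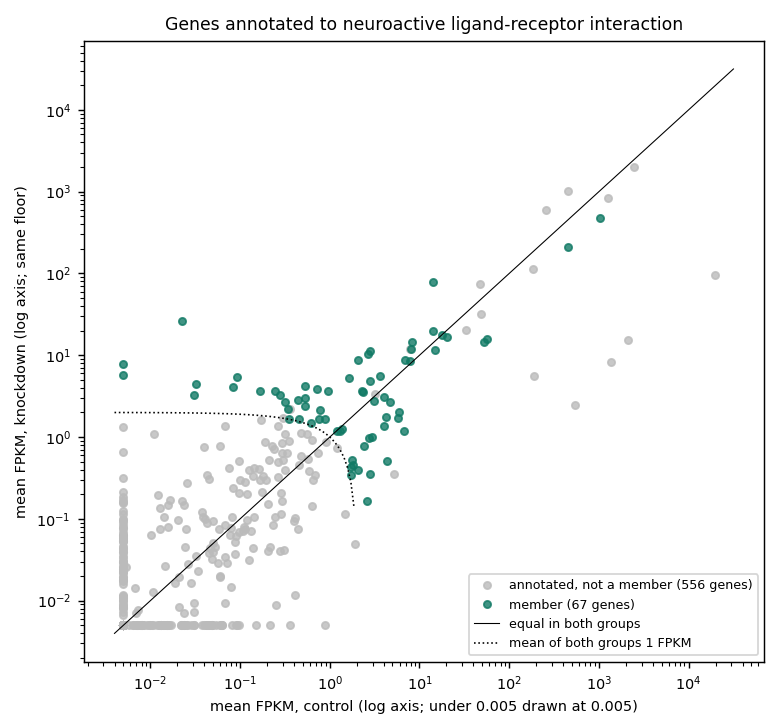
Mean FPKM of each annotated gene in the control group (x axis) and in the knockdown group (y axis), both on log axes with values under 0.005 drawn at 0.005. Green points are the 67 members, grey points the other annotated genes, the solid line marks equal levels and the dotted curve a mean of 1 FPKM over both groups. The 2 members at the left edge are drd3 and LOC106098272, which had no reads in the controls.

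Members were found on both sides of the comparison. Of the 33 members with a mean of at least 1 FPKM in each group, 13 were higher and 14 lower in the knockdown libraries at an edgeR adjusted p under 0.05, and 6 did not pass. That share is close to the background: among the 9637 tested genes with a mean of at least 1 FPKM in both groups, 75.4% were called, 35.9% higher and 39.5% lower. In 27 of the 33 members the groups did not overlap in FPKM, against 76.8% of those 9637 genes. The median log2 fold change of the 33 was -0.14 and that of the 9637 genes was -0.06. Among the 26 receptors of that set 11 were higher and 11 lower, and among the 6 precursors 2 were higher and 3 lower. In bulk tissue, fewer cells of a type and less RNA per cell cannot be told apart in any of these values.

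Another 32 members had a mean under 1 FPKM in 1 group and entered the set only through the group where they were high. A difference was therefore built into their choice, and their calls are not counted as results. They made up 49.2% of the 65 members tested (drd3 and LOC106098272 aside), whereas 15.7% of all 11431 tested genes had such a low group. Many members lay near the level limit: the median mean of the 65 was 2.38 FPKM, and 28 were under 2 FPKM. Their share was not compared with that of other genes of such levels. In 22 of the 32 the control group was the low one and in 10 the knockdown group. With them the counts over the 65 tested members came to 35 higher, 24 lower and 6 not called, next to 78.2% of all tested genes called, 39.1% in each direction, and 79.5% of tested genes without overlap between the groups.

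**Figure D2:**
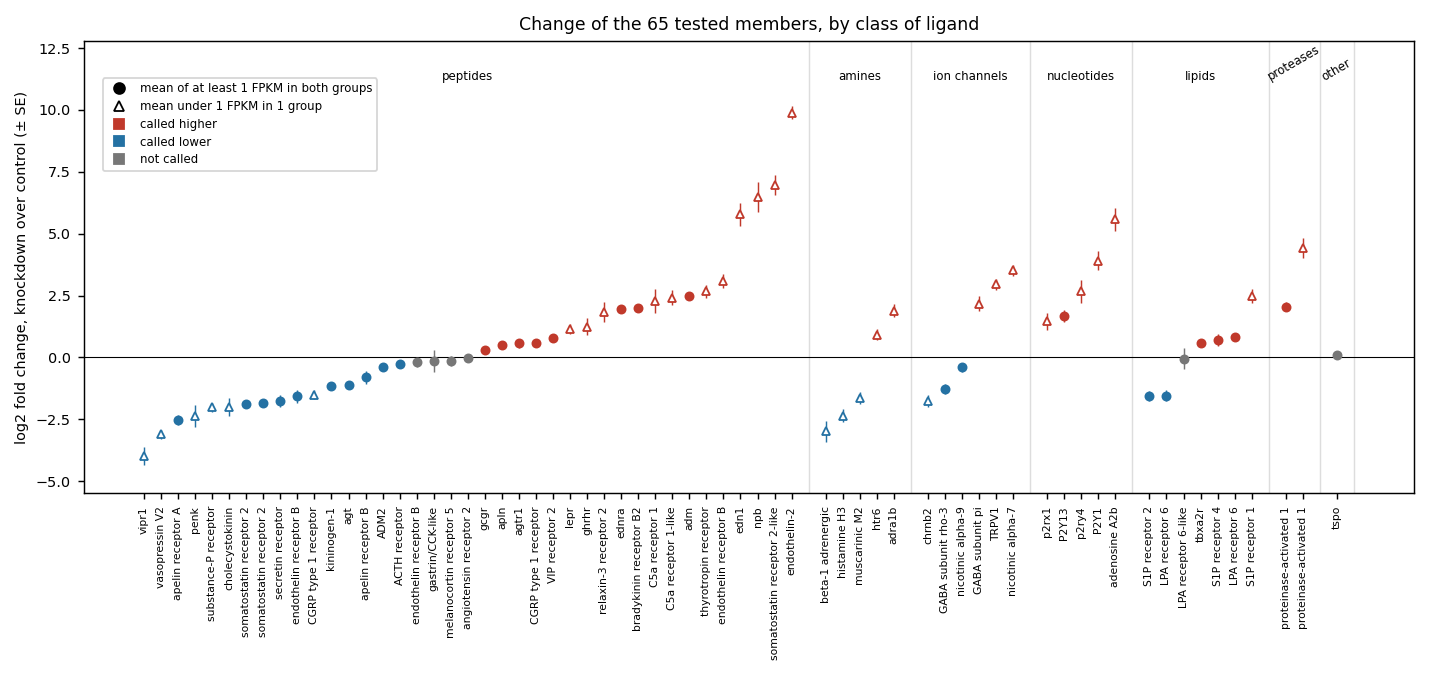
Log2 fold change, knockdown over control, of the 65 tested members (y axis; bars are ± SE from edgeR), ordered within each class of ligand along the x axis. Filled circles have a mean of at least 1 FPKM in both groups and open triangles under 1 FPKM in 1 group; red was called higher, blue lower and grey not called. The peptide class spans both directions, and all 5 receptors of nucleotides lie above 0, 4 of them as open triangles; fitted values above about 5 rest on under 10 control reads and depend on the fit.

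Markers of other cell types moved with the groups. The summed level of 6 exocrine pancreas markers was 91.9 to 181 FPKM in the knockdown libraries and 23042 to 23480 FPKM in the controls, with all 6 lower. Hemoglobin genes summed to 2599 to 2823 against 17084 to 17677 FPKM, with 7 of 9 tested lower and 2 higher. Leukocyte markers summed to 751 to 762 against 271 to 293 FPKM (6 of 11 tested, all higher), and endothelial markers to 34.5 to 35.0 against 18.4 to 20.6 FPKM (5 of 9 tested, all higher). The markers of stellate cells, fibroblasts and smooth muscle gave 55.1 to 61.4 against 23.5 to 28.2 FPKM, with 6 higher and 1 lower of 9 tested. Both bile duct markers were higher, at 44.7 to 47.8 against 8.87 to 11.03 FPKM in sum. Of 22 neuron and glia markers 1 reached the level for testing, their sum was 8.90 to 9.62 against 2.63 to 3.18 FPKM, and gfap, syp, LOC100700859, LOC100710649 and LOC100710842 had no reads. The 10 hepatocyte markers summed to 32344 to 32675 against 45568 to 48287 FPKM, with 3 higher and 6 lower. The 63 genes described as exocrine pancreas products summed to 518 to 669 FPKM in the knockdown libraries. In the controls they summed to 48786 to 49560 FPKM, with 28 of 30 tested lower in the knockdown group and 2 higher. That is more than the sum of the 10 hepatocyte markers in each control library, but the 10 leave out hepatocyte genes such as agt. The sums thus do not compare whole tissues. The part of the pancreas genes and of the other markers in the results on the receptors below was not tested. With the 39 tested genes of pancreatic enzymes and hemoglobins left out of scaling and test, 13 of the 33 members were again higher and 14 lower.

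**Figure D3:**
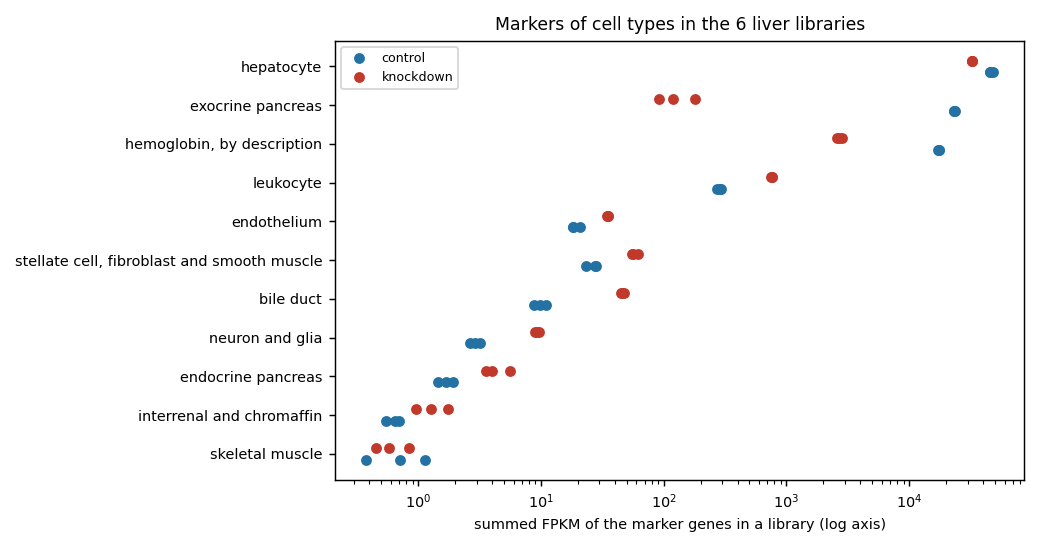
Summed FPKM of the marker genes of each cell type (x axis, log scale) in the 3 knockdown libraries (red) and the 3 control libraries (blue). Exocrine pancreas and hemoglobin sums lie lower in the knockdown libraries, while leukocyte, endothelial, stellate, bile duct and neuron sums lie higher, with no overlap between the groups.

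The endothelin system was present with 2 ligand and 4 receptor genes. Endothelins are short peptides that constrict vessels, and in mammals they act through a type A receptor on smooth muscle and type B receptors on endothelium and other cells. The endothelin-2 gene (LOC102080384, NCBI symbol edn2, linkage group LG22, 33375041 to 33378220, minus strand) was at 27.7, 25.9 and 24.8 FPKM in the knockdown libraries and at 0.0676, 0 and 0 FPKM in the controls. These were 2038 reads against 2, a ratio of reads per library total of 1146 with a 95% interval of 317 to 9466 that covers counting error only. Almost all endothelin-2 reads thus came from the knockdown libraries. A second ligand gene, edn1, had 3.51, 6.34 and 6.62 FPKM against 0.140, 0 and 0.134 FPKM, or 415 reads against 8 (ratio 58.3, interval 29.3 to 136). Both ligand genes had entered the set only through the knockdown group, so their values and ratios are a description.

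The receptor genes of the endothelins went different ways. Type A, ednra, the receptor with the stronger preference for endothelin-1 in mammals, averaged 10.3 ± 1.37 FPKM in the knockdown group and 2.66 ± 0.221 FPKM in the control group (SD, n = 3 libraries, as for all means below; log2 fold change 1.95, SE 0.11, edgeR adjusted p = 5.54e-14). Among all tested genes 39.1% were called in each direction. Of the 3 members described as endothelin receptor type B, 1 was higher, 1 lower and 1 was not called. The higher one, LOC100706592, had entered the set only through the knockdown group and stood at 2.71 ± 0.312 against 0.313 ± 0.0811 FPKM (log2 fold change 3.09, SE 0.29). LOC100704989, which carries the NCBI symbol ednrba, fell to 1.00 ± 0.259 from 2.97 ± 0.0981 FPKM (log2 fold change -1.57, SE 0.26, edgeR adjusted p = 8.46e-06). For LOC100690331 the means were 2.72 ± 0.666 and 3.11 ± 0.289 FPKM, and the groups overlapped (log2 fold change -0.20, SE 0.17, edgeR adjusted p = 0.277). Without knockdown library 2 this gene passed, with a log2 fold change of -0.41 and an edgeR adjusted p of 0.0337. Endothelin-converting enzyme 1, ece1, which cuts the active peptide from its precursor and was picked from the ligand list after its values were seen, was at 9.85 ± 0.612 against 6.43 ± 0.447 FPKM (log2 fold change 0.61, SE 0.10, edgeR adjusted p = 6.62e-06).

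**Figure D4:**
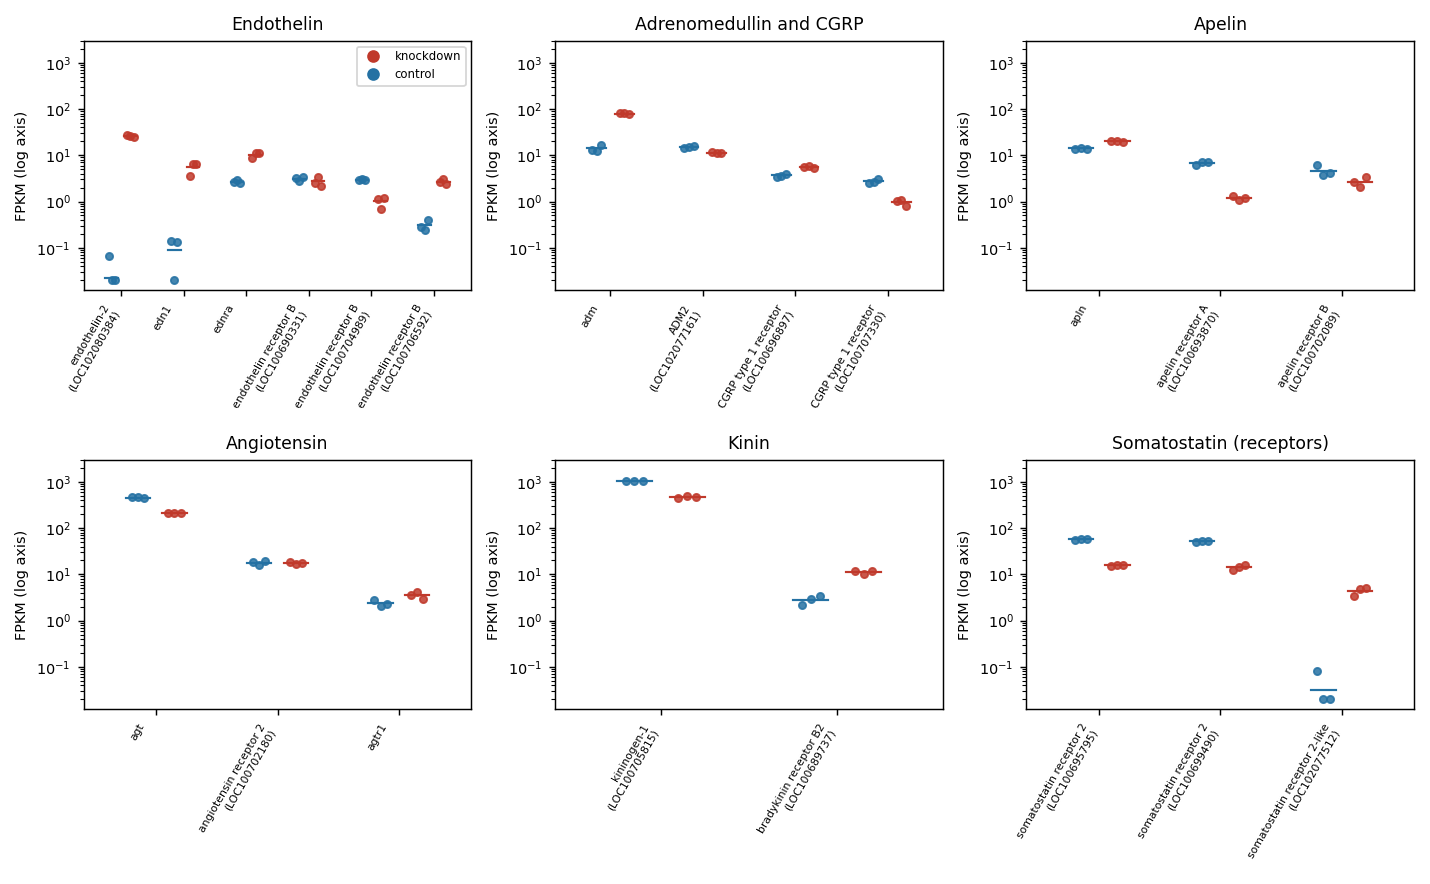
FPKM of the ligand and receptor genes of 6 peptide systems (y axes, log scale, same range in each panel; values under 0.02 drawn at 0.02), with 1 point per library and a line at each group mean, control in blue and knockdown in red. Both endothelin genes and adm lie higher in the knockdown libraries, agt and kininogen-1 lie lower, and the receptors within the endothelin panel do not share 1 direction. Both endothelin genes had entered the set only through the knockdown group.

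Adrenomedullin, a peptide that widens vessels, was higher in every knockdown library than in any control. Its gene adm averaged 79.6 ± 1.66 FPKM in the knockdown group and 14.2 ± 2.50 FPKM in the control group, a 5.59-fold difference (log2 fold change 2.47, SE 0.09, edgeR adjusted p = 1.09e-18). The whole of adm lies opposite sbf2 on the other strand, which had 1014 reads against 262, and reads of the pair could not be told apart by strand here. The related precursor ADM2 (LOC102077161) went the other way, at 11.4 ± 0.154 against 14.99 ± 0.638 FPKM (log2 fold change -0.40, SE 0.08, edgeR adjusted p = 5.65e-05). Both peptides act through the calcitonin receptor-like receptor, which the file describes as calcitonin gene-related peptide type 1 receptor. Of its 2 genes among the members, LOC100696897 was higher, at 5.56 ± 0.249 against 3.67 ± 0.275 FPKM (log2 fold change 0.59, SE 0.10, edgeR adjusted p = 1.37e-05). LOC100707330 was lower, at 0.968 ± 0.146 against 2.73 ± 0.248 FPKM (log2 fold change -1.51, SE 0.18), but had entered the set only through the control group, so its values are a description. A further gene of that description, calcrl, lay under the level limit, at 0.323 against 0.267 FPKM. The accessory protein gene ramp2, whose product turns that receptor into one for adrenomedullin in mammals and which was picked from the signalling list after its values were seen, was at 7.48 ± 1.05 against 4.81 ± 0.207 FPKM (log2 fold change 0.63, SE 0.12, edgeR adjusted p = 4.45e-05).

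In the apelin system the ligand rose while both receptors fell. Apelin is a peptide that acts on heart and vessels, and in zebrafish its receptors also guide cells in the early embryo. The ligand gene apln was at 20.0 ± 0.591 against 14.1 ± 0.346 FPKM (log2 fold change 0.50, SE 0.06, edgeR adjusted p = 8.61e-08). Apelin receptor A (LOC100693870) was at 1.19 ± 0.119 against 6.81 ± 0.619 FPKM, 5.73-fold lower (log2 fold change -2.52, SE 0.20, edgeR adjusted p = 2.69e-11). Apelin receptor B (LOC100702089) averaged 2.66 ± 0.633 against 4.64 ± 1.37 FPKM (log2 fold change -0.81, SE 0.25, edgeR adjusted p = 0.0055). The second of these calls rested on control library 1: without it the log2 fold change was -0.53 and the edgeR adjusted p 0.0964.

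Angiotensinogen and kininogen, the 2 most abundant members, fell by similar amounts. Angiotensinogen is the precursor that renin cuts to start the angiotensin cascade. Its gene agt (LG13, 13535097 to 13539391, minus strand) stood at 209, 208 and 208 FPKM in the knockdown libraries and at 462, 462 and 438 FPKM in the controls (2.18-fold lower, log2 fold change -1.13, SE 0.04, edgeR adjusted p = 4.38e-19). Kininogen-1, the precursor of bradykinin (LOC100705815, LG17, 31018202 to 31023480, minus strand), was at 456, 483 and 474 FPKM against 1020.3, 1041 and 1041 FPKM (2.20-fold lower, log2 fold change -1.14, SE 0.03, edgeR adjusted p = 2.12e-20). In both genes every knockdown library lay far below every control library. On the other strand agt shares 238 bases with cog2 (1313 reads against 491), and kininogen-1 shares 343 bases with LOC100704479 (4589 against 544). Outside the set, LOC100690507, of the same or a like description as kininogen-1, was at 8.49 against 6.20 FPKM and was not called.

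Of the 3 receptors of these peptides 2 were higher and 1 was not called. Among all genes with a mean of at least 1 FPKM in both groups, 75.4% were called, 35.9% higher and 39.5% lower. The B2 bradykinin receptor (LOC100689737), which answers to kinins without prior inflammation in mammals, was higher, at 11.3 ± 0.783 against 2.79 ± 0.605 FPKM (log2 fold change 2.01, SE 0.14, edgeR adjusted p = 2.59e-12). It has several copies of the same description near it on LG19, and the labels do not say how reads that match more than 1 copy were counted. The type-2 angiotensin II receptor (LOC100702180), one of the most abundant receptors of the set, averaged 17.6 ± 1.19 and 18.0 ± 1.98 FPKM with overlapping groups (log2 fold change -0.04, SE 0.09, edgeR adjusted p = 0.69). The type-1 receptor gene agtr1, which mediates vessel constriction in mammals, was at 3.54 ± 0.575 against 2.37 ± 0.385 FPKM (log2 fold change 0.57, SE 0.19, edgeR adjusted p = 0.00964). That call was lost without knockdown library 2 (edgeR adjusted p = 0.0533) and without control library 2 (0.0559).

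Somatostatin receptors, through which the hormone restrains secretion, held the most abundant receptor genes. The gene LOC100695795 on LG8 averaged 15.7 ± 0.399 FPKM in the knockdown group and 57.2 ± 1.40 FPKM in the control group, 3.64-fold lower (log2 fold change -1.87, SE 0.04, edgeR adjusted p = 2.36e-22). LOC100699490 on LG4, with the same description of somatostatin receptor type 2, was at 14.3 ± 1.81 against 52.0 ± 2.15 FPKM (log2 fold change -1.86, SE 0.07, edgeR adjusted p = 3.23e-18). These genes on different linkage groups thus had nearly the same level and the same fold change. A further gene, LOC102077512, described as somatostatin receptor type 2-like, lies 24.3 kb from the first (LG8, 23801333 to 23805041, plus strand) and had the opposite order, with 3.45, 4.79 and 5.01 FPKM in the knockdown libraries and 0.0815, 0 and 0.0156 FPKM in the controls. It held 717 reads against 6 (ratio 134, 95% interval 61.4 to 367), and its groups did not overlap. LOC102077512 had entered the set only through the knockdown group, so these values are a description. Precursors of somatostatin were not among the members.

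Receptors of the secretin family, which raise cyclic AMP, were split as well. Of the 3 with a mean of at least 1 FPKM in both groups, 2 were higher and 1 lower. Among all genes of that level 35.9% were higher and 39.5% lower. The genes vipr1 and ghrhr had entered the set only through their high group, so their values are a description. The glucagon receptor gcgr, by which glucagon drives glucose output from the liver, was at 8.67 ± 0.591 against 6.93 ± 0.371 FPKM, a 1.25-fold difference (log2 fold change 0.31, SE 0.08, edgeR adjusted p = 0.00136). Vasoactive intestinal polypeptide receptor 2 (LOC100707237) was at 4.90 ± 0.370 against 2.84 ± 0.252 FPKM (log2 fold change 0.78, SE 0.12, edgeR adjusted p = 3.78e-06). The gene for the other receptor of that peptide, vipr1, was low in the knockdown libraries, at 0.163 ± 0.119 against 2.58 ± 0.132 FPKM (log2 fold change -3.98, SE 0.36). The secretin receptor (LOC100712082), known from bile duct and pancreatic duct cells in mammals, was at 1.69 ± 0.675 against 5.71 ± 0.608 FPKM (log2 fold change -1.76, SE 0.23, edgeR adjusted p = 2.63e-07). Beside it stand the bile duct markers, which were higher in the knockdown libraries, and the pancreatic enzymes, which were lower. The gene annotated as ghrhr, the receptor of growth hormone-releasing hormone, averaged 1.48 ± 0.378 against 0.618 ± 0.00351 FPKM (log2 fold change 1.24, SE 0.35).

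Of the 2 melanocortin receptor genes among the members, which lie on opposite strands of LG11 and share 289 bases, neither differed by more than a small fold. The adrenocorticotropic hormone receptor (LOC100693550, NCBI symbol mc2r), best known from steroid-producing cells, was at 16.8 ± 2.73 against 20.3 ± 0.326 FPKM (log2 fold change -0.28, SE 0.11, edgeR adjusted p = 0.0228). Without knockdown library 1 its log2 fold change was -0.15 (edgeR adjusted p = 0.182), and without control library 1 the adjusted p was 0.0753. Melanocortin receptor 5 (LOC100693278) averaged 1.24 ± 0.366 and 1.36 ± 0.0849 FPKM with overlap (log2 fold change -0.14, SE 0.20, edgeR adjusted p = 0.515). Markers of interrenal and chromaffin cells, the steroid- and catecholamine-producing cells of fish, summed to 0.965 to 1.76 against 0.552 to 0.704 FPKM, and th and chga had no reads.

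Other peptide receptors each stood alone for their hormone, and each had a mean under 1 FPKM in 1 group. They had entered the set only through the group where they were high, so their values are a description. The leptin receptor lepr, which signals through JAK and STAT proteins and not through G proteins, was at 1.68 ± 0.0633 against 0.750 ± 0.0649 FPKM (log2 fold change 1.15, SE 0.20). Its ligand gene lepa, from the ligand list and not a member, was over 1 FPKM in both groups and higher in the knockdown group. It was at 12.9 ± 3.19 against 1.74 ± 0.244 FPKM (log2 fold change 2.87, SE 0.22, edgeR adjusted p = 8.8e-12). The thyrotropin receptor (LOC100700258), which drives the thyroid, was at 2.86 ± 0.406 against 0.444 ± 0.120 FPKM (log2 fold change 2.66, SE 0.25), from a gene model that the file marks as of low quality. Relaxin-3 receptor 2 (LOC100691179) averaged 1.66 ± 0.814 against 0.457 ± 0.0424 FPKM (log2 fold change 1.84, SE 0.40), with knockdown library 1, at 0.766 FPKM, closest to the controls. On the lower side, the vasopressin V2 receptor (LOC100707194), which in mammals controls water uptake in the kidney, was at 0.505 ± 0.0784 against 4.37 ± 0.512 FPKM (log2 fold change -3.12, SE 0.19). The substance-P receptor (LOC100703444), the receptor of a sensory neuropeptide, was at 0.430 ± 0.0297 against 1.74 ± 0.130 FPKM (log2 fold change -2.02, SE 0.18).

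The C5a receptors, which draw neutrophils and macrophages to sites of complement activation, both entered the set only through their high group, the knockdown, so their values are a description. LOC100690001 was at 3.90 ± 0.0410 against 0.724 ± 0.267 FPKM (log2 fold change 2.41, SE 0.29) and LOC100690534, 35.2 kb away on LG14, at 1.67 ± 0.537 against 0.347 ± 0.220 FPKM (log2 fold change 2.26, SE 0.48). All 6 tested leukocyte markers were higher in the same libraries, and their part in these values was not tested.

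The remaining peptide precursors were low. Neuropeptide B, npb, a ligand of a pair of brain receptors in mammals, had 3.48, 4.29 and 2.11 FPKM against 0, 0 and 0.0915 FPKM, or 272 reads against 3 (ratio 102, 95% interval 34.5 to 497). This gene had entered the set only through the knockdown group, so its values are a description. It shares 440 bases with a G protein alpha subunit gene on the other strand (LOC100710009), which was also higher, with 421 reads against 19. Proenkephalin, penk, the precursor of opioid peptides, was at 0.392 ± 0.262 against 2.05 ± 0.0469 FPKM (log2 fold change -2.38, SE 0.45). Both penk and the cholecystokinin gene LOC100690455 had entered the set only through the control group, so their values are a description. Cholecystokinin (LOC100690455), which in mammals drives secretion from the exocrine pancreas, was at 0.454 ± 0.0572 against 1.83 ± 0.382 FPKM (log2 fold change -2.01, SE 0.36). A second gene of that family, the gastrin/cholecystokinin-like peptide LOC100707744, averaged 1.17 ± 0.238 and 1.31 ± 0.659 FPKM with overlap (log2 fold change -0.17, SE 0.45, edgeR adjusted p = 0.74).

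**Figure D5:**
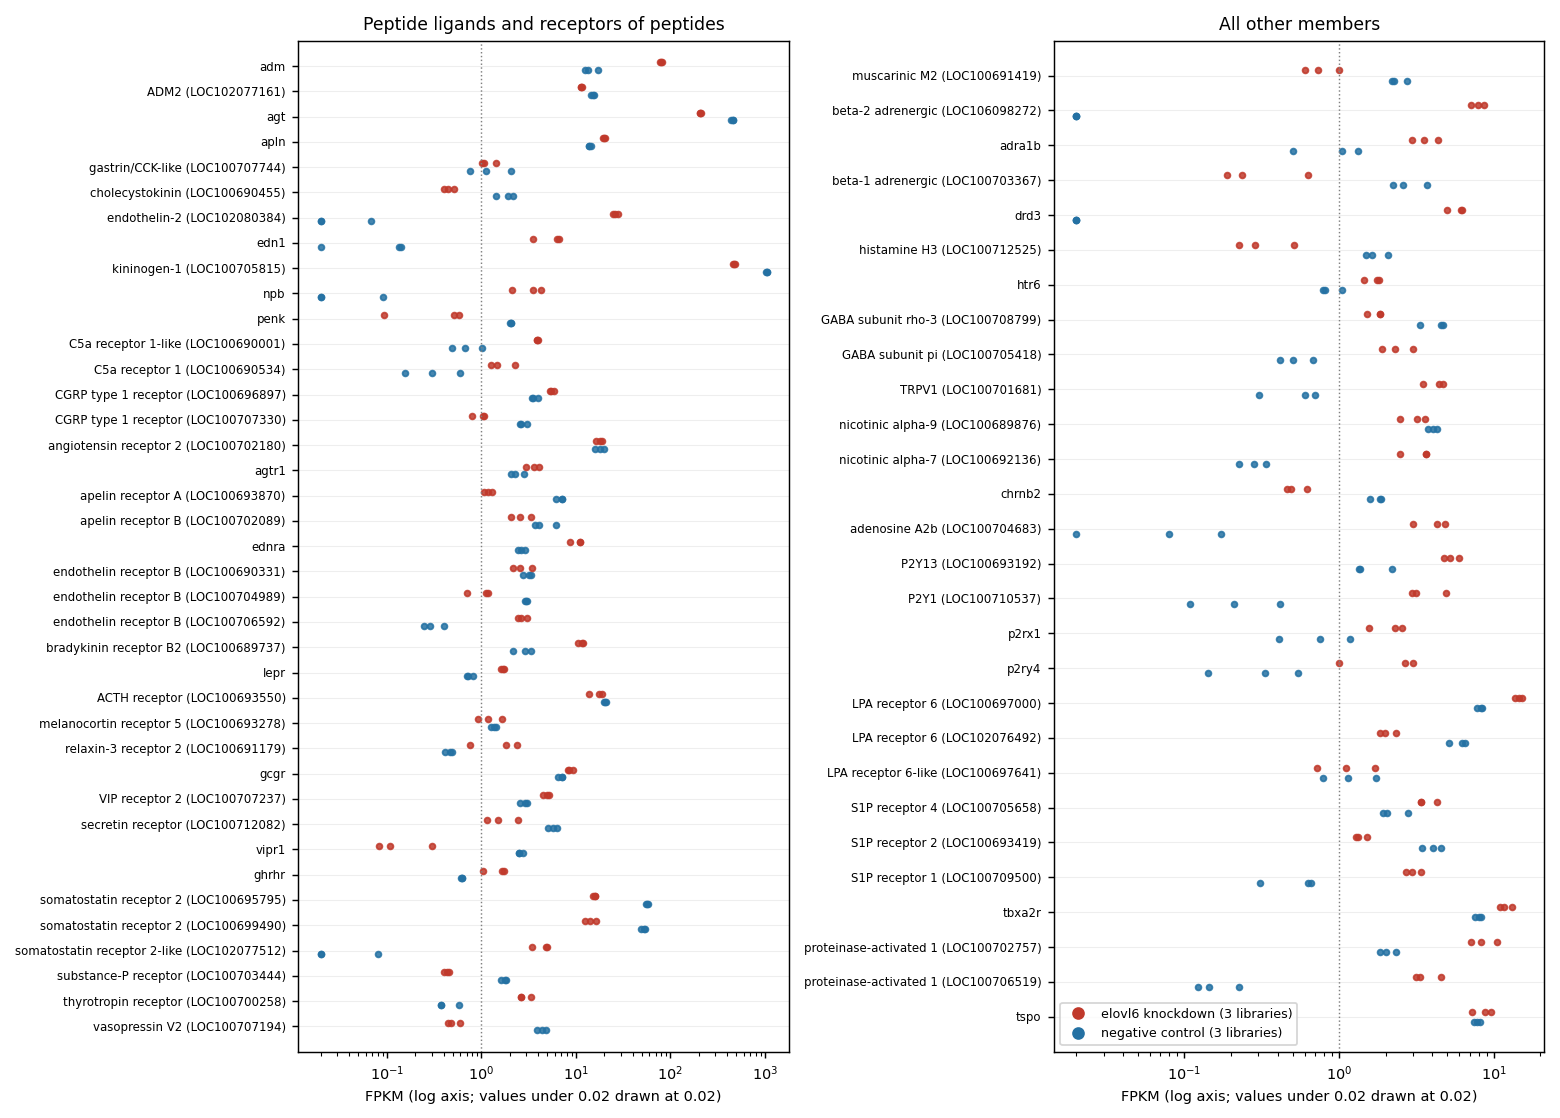
FPKM of each of the 67 members in every library (x axes, log scale; values under 0.02 drawn at 0.02), with knockdown libraries in red and control libraries in blue; the dotted line marks 1 FPKM. The left panel holds the peptide precursors and the receptors of peptides, the right panel all others. Red and blue points are apart for most genes, and overlap for 6, among them the type-2 angiotensin II receptor and tspo. The groups were also apart in 79.5% of all tested genes. Of the members, 32 had entered the set only through their high group, and drd3 and LOC106098272 were chosen for their difference.

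Each of the 7 amine receptors had a group mean under 1 FPKM. The gene LOC106098272 and drd3 were chosen because of their difference, so their values are a description and carry no test. LOC106098272, described as a receptor of adrenaline of the beta-2 type (LG1, 17882221 to 17898263, plus strand), had 468, 420 and 531 reads in the knockdown libraries, or 7.90, 7.10 and 8.599 FPKM, and no read in any control library. Counted against a floor of 3 reads over the 3 control libraries, it was at least 532-fold higher. No other annotated gene overlaps it. The dopamine receptor gene drd3 (LG9, 18579710 to 18606135, plus strand) had 272, 217 and 279 reads, or 6.24, 4.99 and 6.15 FPKM, against 0 in every control library, at least 288-fold higher. All of drd3 lies within LOC102082737, a gene on the same strand described as extracellular matrix protein FRAS1, which had 101 reads in the knockdown libraries and none in the controls. Reads of the pair cannot be told apart where their exons coincide.

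The other amine receptors also had a group under 1 FPKM, and their values are a description. The alpha-1B adrenergic receptor adra1b, which raises calcium in hepatocytes in response to adrenaline, was at 3.52, 2.96 and 4.35 FPKM in the knockdown libraries and at 1.04, 0.505 and 1.33 FPKM in the controls (log2 fold change 1.89, SE 0.25). Every knockdown library was above every control. A gene described as beta-1 adrenergic receptor, for which NCBI gives the symbol adrb3a (LOC100703367), had 0.187, 0.235 and 0.629 FPKM against 2.60, 3.69 and 2.22 FPKM (log2 fold change -2.99, SE 0.44). It shares 1007 bases on the same strand with a cytosolic aspartate aminotransferase gene (LOC100703097) that had 124 reads against 272, and reads of the shared bases cannot be told apart. Under the level limit, group means were 0.738 against 1.22 FPKM for the alpha-2Db receptor and 1.09 against 0.564 FPKM for an alpha-2B receptor (LOC100694621). These also had opposite orders, but the groups of the alpha-2Db receptor overlapped, with 75 reads against 141. Neither gene reached the level for testing.

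Histamine H3 receptor (LOC100712525), which in mammals limits transmitter release from nerve endings, was at 0.225, 0.513 and 0.287 FPKM in the knockdown libraries and at 1.496, 2.08 and 1.64 FPKM in the controls (log2 fold change -2.35, SE 0.27). The muscarinic receptor LOC100691419, M2 in the file and chrm4b at NCBI, answers to acetylcholine through inhibitory G proteins and had 1.00, 0.725 and 0.606 FPKM against 2.27, 2.75 and 2.20 FPKM (log2 fold change -1.64, SE 0.24). In both genes the groups were apart. Serotonin receptor 6, htr6, was at 1.68 ± 0.192 against 0.883 ± 0.142 FPKM (log2 fold change 0.91, SE 0.23). Neuron and glia markers, given above, were higher in sum in the knockdown libraries, but only 1 of the 22 reached the level for testing. Their part in the values of these receptors was not tested.

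Among the ion channel subunits, 2 had a mean of at least 1 FPKM in both groups, alpha-9 of the acetylcholine receptor and rho-3 of the GABA receptor. The others had entered through the group where they were high, and their values are a description. The acetylcholine receptor subunit alpha-7 gene LOC100692136, whose product forms calcium-permeable channels and is also known from macrophages in mammals, had 3.65, 2.49 and 3.66 FPKM in the knockdown libraries against 0.280, 0.227 and 0.336 FPKM (log2 fold change 3.52, SE 0.23). The beta-2 subunit gene chrnb2 had the reverse order, with 0.459, 0.619 and 0.486 FPKM against 1.86, 1.59 and 1.83 FPKM (log2 fold change -1.76, SE 0.25). Neither gene had overlapping groups. The gene described as alpha-9 (LOC100689876, chrna10a at NCBI), the channel gene with the highest mean, was at 3.18, 2.49 and 3.57 FPKM against 4.03, 3.78 and 4.29 FPKM (log2 fold change -0.40, SE 0.18, edgeR adjusted p = 0.049). Its groups were close, and the call was lost with DESeq2 (adjusted p = 0.0719), under both other scalings and without 5 of the 6 libraries in turn, with an edgeR adjusted p of up to 0.185.

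The GABA receptor subunits, parts of chloride channels, and the channel TRPV1 were also among the channel members. Subunit pi (LOC100705418) was at 2.30, 1.91 and 3.004 FPKM in the knockdown libraries and at 0.413, 0.681 and 0.501 FPKM in the controls (log2 fold change 2.17, SE 0.30). Subunit rho-3 (LOC100708799) was at 1.53, 1.83 and 1.84 FPKM against 4.69, 4.58 and 3.36 FPKM (log2 fold change -1.28, SE 0.22, edgeR adjusted p = 8.78e-06). TRPV1 (LOC100701681), the heat- and capsaicin-gated channel of mammalian sensory nerves, had 3.48, 4.72 and 4.46 FPKM against 0.699, 0.305 and 0.600 FPKM (log2 fold change 2.95, SE 0.23). In these 3 genes no library of a group reached the range of the other group. The GABA-degrading enzyme gene abat, from the ligand list, was lower, at 46.8 ± 1.63 against 135 ± 0.778 FPKM (log2 fold change -1.54, SE 0.04, edgeR adjusted p = 5.67e-21).

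The 5 members that are receptors of nucleotides and nucleosides were all higher, next to 39.1% of all tested genes. In 4 of them, however, the control mean was under 1 FPKM. Those 4 had entered the set only through the knockdown group, so their values are a description. The adenosine receptor LOC100704683, described as A2b, raises cyclic AMP in mammals. It was at 2.9997, 4.85 and 4.32 FPKM in the knockdown libraries and at 0.0798, 0.172 and 0 FPKM in the controls, or 403 reads against 9 (ratio 50.3, 95% interval 26.3 to 111). P2Y purinoceptor 1 (LOC100710537), a receptor of ADP that acts in platelet aggregation, had 3.14, 2.96 and 4.88 FPKM against 0.109, 0.412 and 0.209 FPKM (log2 fold change 3.90, SE 0.38). For these genes the controls held few reads and all of the knockdown libraries lay above them. Outside the set, the gene p2ry1, also described as P2Y purinoceptor 1, averaged 2.92 against 2.25 FPKM and was not called. P2Y purinoceptor 13 (LOC100693192), another ADP receptor and the one with a control mean over 1 FPKM, was at 5.18, 4.78 and 5.95 FPKM against 2.19, 1.37 and 1.35 FPKM (log2 fold change 1.68, SE 0.24, edgeR adjusted p = 6.01e-07). The P2Y purinoceptor 4 gene p2ry4 had 3.01, 0.994 and 2.67 FPKM against 0.331, 0.143 and 0.540 FPKM (log2 fold change 2.67, SE 0.47), with knockdown library 2 well below the other two. The ATP-gated channel gene p2rx1, known from platelets and smooth muscle, had 1.56, 2.31 and 2.54 FPKM against 0.406, 1.17 and 0.753 FPKM (log2 fold change 1.46, SE 0.35).

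Enzymes that shape the nucleotide ligands were mixed. The gene entpd1, whose product removes phosphates from extracellular ATP and ADP, was higher, at 5.52 ± 0.330 against 3.11 ± 0.174 FPKM (log2 fold change 0.82, SE 0.12, edgeR adjusted p = 1.97e-06). Adenosine deaminase, ada, was at 0.928 ± 0.242 against 1.95 ± 0.212 FPKM (log2 fold change -1.08, SE 0.26). It had reached the level for testing only through the control group, so its values are a description.

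The lipid receptors had a median mean level of 2.98 FPKM, against 1.95 FPKM for those of nucleotides. A lysophosphatidic acid receptor 6 gene (LOC100697000, NCBI symbol lpar6a) was at 15.3, 13.7 and 14.6 FPKM in the knockdown libraries and at 7.84, 8.36 and 8.26 FPKM in the controls (1.78-fold higher, log2 fold change 0.83, SE 0.10, edgeR adjusted p = 2.5e-08). Another gene of that description (LOC102076492) fell to 1.97, 2.34 and 1.85 FPKM from 5.13, 6.496 and 6.25 FPKM (log2 fold change -1.54, SE 0.21, edgeR adjusted p = 4.28e-07). It lies inside rb1 on the other strand, which had 300 reads against 143. The groups were apart in both, in opposite directions. A gene described as receptor 6-like (LOC100697641) averaged 1.18 ± 0.502 and 1.22 ± 0.477 FPKM with overlap (log2 fold change -0.05, SE 0.44, edgeR adjusted p = 0.92). The autotaxin gene of the ligand list (LOC100709650, NCBI symbol enpp2l), whose product makes lysophosphatidic acid, was lower, at 11.8 ± 0.748 against 36.5 ± 0.921 FPKM (log2 fold change -1.64, SE 0.06, edgeR adjusted p = 8.03e-18).

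The receptors of sphingosine 1-phosphate, which steer endothelial cells and lymphocytes, were split too. Receptor 2 (LOC100693419) was at 1.34, 1.51 and 1.28 FPKM against 3.46, 4.07 and 4.57 FPKM (log2 fold change -1.56, SE 0.21, edgeR adjusted p = 3.68e-07). A gene described as receptor 1, but s1pr5a at NCBI (LOC100709500), was at 2.97, 3.40 and 2.70 FPKM against 0.655, 0.307 and 0.628 FPKM (log2 fold change 2.48, SE 0.29). The groups of each were apart. LOC100709500 had entered the set only through the knockdown group, so its values are a description. Receptor 4 (LOC100705658), which in mammals is found mainly on lymphocytes, averaged 3.70 ± 0.520 against 2.26 ± 0.474 FPKM (log2 fold change 0.70, SE 0.23, edgeR adjusted p = 0.00851). In the supply of this ligand, the exporter gene spns2 was higher, at 6.24 ± 0.186 against 1.94 ± 0.302 FPKM (log2 fold change 1.68, SE 0.12, edgeR adjusted p = 4.28e-12). The gene of the lyase that breaks it down, sgpl1, was at 0.554 ± 0.140 against 3.36 ± 0.537 FPKM (log2 fold change -2.60, SE 0.23). It had reached the level for testing only through the control group, so its values are a description. Thromboxane A2 receptor, tbxa2r, which in mammals contracts vessels and activates platelets, was at 11.1, 13.03 and 11.7 FPKM against 8.09, 8.31 and 7.55 FPKM (log2 fold change 0.57, SE 0.10, edgeR adjusted p = 8.5e-06), again with no overlap.

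The 2 members described as proteinase-activated receptor 1, which thrombin switches on by cutting the receptor itself, were both higher. The share of all tested genes that were higher was 39.1%. LOC100702757 on LG7 was at 10.5, 7.17 and 8.27 FPKM in the knockdown libraries and at 1.85, 2.0003 and 2.33 FPKM in the controls (log2 fold change 2.05, SE 0.20, edgeR adjusted p = 9.53e-10). LOC100706519 on LG12 was at 4.53, 3.14 and 3.34 FPKM against 0.227, 0.123 and 0.145 FPKM (log2 fold change 4.42, SE 0.42). In both, all knockdown libraries were above all controls. LOC100706519 had entered the set only through its high group, so its values are a description. Outside the set, just under the level limit, lay proteinase-activated receptor 2 (LOC100696301) with 1.62 against 0.170 FPKM, receptor 3 (LOC100694976) with 1.37 against 0.268 FPKM and receptor 4 (LOC100711248) with 0.113 against 1.49 FPKM. The translocator protein gene tspo, which codes for a mitochondrial membrane protein and not for a cell surface receptor, was at 8.73, 7.19 and 9.55 FPKM against 7.85, 7.44 and 8.12 FPKM. Its groups overlapped (log2 fold change 0.11, SE 0.16, edgeR adjusted p = 0.512).

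Several receptors were present in more than 1 copy. The 3 members described as lysophosphatidic acid receptor 6 or 6-like all had a mean of at least 1 FPKM in both groups. Of these, 1 was higher, 1 lower and 1 not called, next to 35.9% of all genes of that level higher and 39.5% lower. Opposite orders of the group means were also seen among the endothelin B, calcitonin gene-related peptide and somatostatin type 2 receptors, but there 1 of the copies had entered the set only through its high group (LOC100706592, LOC100707330 and LOC102077512), so these are descriptions. Another gene in the table shares its description with 40 of the 67 members, and 17 overlap another gene, 2 of them on the same strand. Reads of near-identical copies and of overlapping genes may have been assigned to the wrong gene, to an extent that was not tested. By other annotations, 16 members belong to calcium signalling, 14 to cyclic AMP signalling, 12 to vascular smooth muscle contraction and 5 to platelet activation, and a member can belong to several of these.

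Genes that act downstream of the receptors were taken from a list of G protein signalling genes, of which 68 reached the level for testing. Of these 39 were higher, 15 lower and 14 not called, so 79.4% were called, next to 78.2% of all tested genes, and the median log2 fold change was 0.46 against -0.01 for all tested genes. With a mean of at least 1 FPKM in both groups there were 49, of which 24 were higher and 13 lower. Of all genes of that level 35.9% were higher and 39.5% lower. The regulators of G protein signalling, which speed up the return of G proteins to rest, had 10 of 12 tested genes higher, none lower and a median of 1.91. Of all tested genes 39.1% were higher. Only 5 of the 12 had a mean of at least 1 FPKM in both groups, and 4 of these 5 were higher. The others had reached the level for testing only through their high group, so the count and median of the 12 are a description. With 3.92 ± 0.916 against 0.238 ± 0.145 FPKM, rgs5b (LOC100702567) was one of the 4 named by size of change (log2 fold change 3.99, SE 0.45). Regulator 3, rgs3, was at 19.5 ± 0.885 against 1.13 ± 0.166 FPKM (log2 fold change 4.10, SE 0.08, edgeR adjusted p = 1.78e-23). Regulator 2 (LOC100706770) had 121 reads against 4 (ratio 34.0, 95% interval 12.9 to 127). The fourth was the alpha subunit gene next to npb, LOC100710009, at 3.62 ± 0.649 against 0.145 ± 0.00827 FPKM (log2 fold change 4.60, SE 0.33). Of these, rgs5b, regulator 2 and LOC100710009 had reached the level for testing only through the knockdown group, so their values are a description. Genes of regulator 5 also serve as markers of pericytes in the stellate and smooth muscle list, whose sum was higher in the same libraries, and the part of those cells was not tested.

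The rest of the signalling list was less one-sided. Read over the genes with a mean of at least 1 FPKM in both groups, 3 of 3 genes of receptor kinases and arrestins were higher. Among the phosphodiesterases of that level 3 of 5 were higher and 1 lower, among the G protein subunits 7 of 19 higher and 4 lower, and among the protein kinase A genes 3 of 7 higher and 3 lower. The share called over all genes of that level was 75.4%, as given above. Without the limit on both groups, the phosphodiesterases gave 7 higher and 1 lower of 10 tested, next to 39.1% of all tested genes in each direction. Those outside the 5 had reached the level for testing only through their high group, so the count of the 10 is a description. The strongest decreases were those of a gamma-5 subunit gene (LOC100701095, 8 reads, all in knockdown library 1, against 254, lower by a ratio of 28.2 with an interval of 14.1 to 66.1) and of a protein kinase A regulatory subunit gene (LOC100690733, log2 fold change -1.08, SE 0.17, edgeR adjusted p = 2.45e-06). The gamma-5 gene had reached the level for testing only through the control group, so its values are a description. A G(i) alpha-1 subunit gene (LOC100696596, log2 fold change -1.02, SE 0.11, edgeR adjusted p = 6.14e-09) and rapgef3 (LOC100711715), the cyclic AMP sensor outside protein kinase A, followed (log2 fold change -0.99, SE 0.23, edgeR adjusted p = 0.000447). Among 18 tested genes of ligand synthesis, processing and breakdown, 7 were higher, 7 lower and 4 not called, with a median log2 fold change of -0.24. The share called was 77.8%, close to the 78.2% of all tested genes. With a mean of at least 1 FPKM in both groups there were 16, of which 7 were higher and 5 lower. The histamine-inactivating enzyme gene hnmt was one of those higher, at 31.7 ± 4.55 against 15.9 ± 1.06 FPKM (log2 fold change 0.99, SE 0.10, edgeR adjusted p = 1.67e-09). The histamine H3 receptor gene LOC100712525 had the opposite order, but it had entered the set only through the control group, so that order is a description.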

How the data were processed

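The members and the lists of markers, signalling genes and ligand genes were chosen with earlier results of these data known. The 6 liver libraries were made from poly(A) RNA and sequenced from both ends, 150 bp each. Reads passed through cutadapt 1.9 and HISAT, per the submitters' processing notes. Which program counted reads, how it used strand and reads with more than 1 match, and which genome build was used is not given in the sources used here. Per the file headers, the deposited table gives the read count and the FPKM of 29528 genes in each library. The authors' FPKM equalled the deposited count divided by gene length and library total in 100% of values (tolerance 1e-05). Coordinates are those of the file, which matched NCBI's O_niloticus_UMD_NMBU table in 99.99% of 29526 matched genes. Linkage groups and NCBI symbols come from that table; 26 of the 47 members known to the file only by a locus number had a symbol there.

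Counts were tested with edgeR's quasi-likelihood test (edgeR 4.0.16 in R 4.3.3, with TMM scaling and without covariates) over the 11431 genes with a mean of at least 1 FPKM, which held 99.0% of reads. Genes were called at a Benjamini-Hochberg adjusted p under 0.05 over all 11431. SE is the log2 fold change divided by the square root of F. Where a group had 1 to 10 reads, a ratio of reads per library total with its exact binomial 95% interval is given, which covers counting error only. The biological coefficient of variation was 9.40%. Replicate numbers only name libraries: deviations of same-numbered libraries correlated at 0.001 to 0.007.

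Values in every library are given for drd3, LOC106098272, the 2 members of each class with the highest mean and the 4 called members of each class with the largest log2 fold change and no overlap. The 4 largest called changes per direction were named from each other list, and other genes named from these lists were picked after their values were seen. Alternatives were DESeq2 1.42.0, limma 3.58.1 on log2(FPKM + 1) and log2(FPKM + 0.1), other scalings and filters, a replicate block and leaving out each library.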

Additional observations from a re-analysis of the deposited data

How the results depend on the processing

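With only genes of a mean of at least 5 FPKM tested, fewer genes remained: 8 members with a mean of at least 1 FPKM in both groups were higher and 5 lower of 16, 9 and 5 of all 17 members tested, 11 and 7 of 19 signalling genes, 4 ligand genes were lower of 9, and of all 5469 genes 2341 were higher and 2321 lower. No other alternative moved these counts by more than 1.5 times. With the replicate block, 13 and 13 of the 33 members, 35 and 23 of the 65 and 4409 and 4447 of all genes were higher and lower, elovl6 stayed at -2.12, and the only member to lose its call was LOC100689876 (edgeR adjusted p = 0.0557). Leaving out each library in turn gave 12 to 13 of the 33 members higher and 11 to 14 lower.

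Of the single members' alternative values, 904 kept direction and side of the threshold, 15 lost the call, 1 gained it and 7 changed sign. The sign changes concerned uncalled genes: LOC100702180 (log2 fold change 0.019 with the filter of 5 FPKM; -0.12 to 0.034 over the left-out libraries), LOC100693278 (-0.39 to 0.036), LOC100697641 (-0.41 to 0.31) and LOC100707744 (-0.43 to 0.31). Lost calls were those of LOC100689876, mc2r (also with the filter of 5 FPKM, edgeR adjusted p = 0.077), apelin receptor B and agtr1. With limma on log2(FPKM + 1), log2 fold changes of 33 members shrank by over 1.5 times with their calls kept, since the added 1 FPKM weighs on low genes. No scaling or filter moved the median of all genes by more than 0.0545. The median receptor had a mean of 2.31 FPKM, so counting error weighs on the values of many members.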
